A study of Mus musculus with 7 samples.

Results

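The renin-angiotensin system and the peptidases of the tubular brush border were followed through 9 genes, Ren1, Agt, Ace, Agtr1a, Mme, Enpep, Anpep, Dpp4 and Ggt1, taken by gene name from 22053 entries for protein-coding genes. All 9 had an FPKM (fragments per kilobase of transcript, scaled to sequencing depth) of at least 1 in at least 3 of the 7 kidneys, which was required of a gene to be tested and which 12036 genes met. In BPS-TA kidneys Ace rose to 1.64 times and Dpp4 to 1.58 times the WT mean, and Mme rose to 1.17 times, whereas Enpep fell to 0.807 times. The calls of Ace and Enpep held in all 14 alternative analyses, while that of Dpp4 was lost in 8 and that of Mme in 11. Ren1 averaged 2.55 times the WT mean, but its 4 BPS-TA kidneys spread from 1.01 to 3.70 times that mean and it did not pass the test. Agt, Agtr1a, Anpep and Ggt1 did not pass the test either.

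Values of cortex RNA were used for 3 wild type (WT) kidneys, named WT-5, WT-6 and WT-7, which is fewer than the paper's methods count. The 4 BPS-TA kidneys are TC-7 and TC-8, then TC-11 and TC-12, with TC read as triple cross. Values below follow this order. All mice are given as C57BL/6, on regular chow. BPS-TA mice hold 3 transgenes, GGT-TTA, GGT-HIF1A_M3 and also BPS-TRE-CAS9n, all of them biallelic. A truncated ggt promoter, active in proximal tubules and also in testis, drives both the tetracycline transactivator tTA and a constitutively active HIF1A mutant, the TRACK transgene. The transactivator in turn switches on a Cas9 nickase with paired guides against Bap1, Pbrm1 and Setd2. This BPS cassette lies in the Col1a1 locus, in a line that goes back to 1 embryonic stem cell clone. The WT kidneys carry none of these alleles. The study's methods describe males, the notes give an age of 10 with both months and weeks as its unit, and the mouse behind each kidney is not known, so that p-values measure the spread between these kidneys, which may be technical.

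Renin, secreted by juxtaglomerular cells of the afferent arteriole, cuts angiotensinogen to angiotensin I, and angiotensin-converting enzyme trims this to angiotensin II, which acts on the AT1 receptor. The cortex holds these components itself, since proximal tubule cells make angiotensinogen, carry converting enzyme in their brush border and express the receptor. Beside converting enzyme, the brush border is covered with peptidases that shorten filtered peptides, angiotensins among them, before tubule cells take up the products.

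Promoter sequence is shown for Ace and Enpep, the members whose calls held in every alternative analysis, for Ren1, the member with the largest mean fold, and for Dpp4. Each is the 250 bases that end just before the gene's start in RefSeq (GRCm38.p6): Ren1 at chr1:133350424-133350673 on the plus strand, Ace at chr11:105967698-105967947 on the plus strand, Enpep at chr3:129332750-129332999 on the minus strand and Dpp4 at chr2:62412232-62412481 on the minus strand. Capitals mark matches, read on either strand, to the core of the HIF binding motif (ACGTG or GCGTG), the TATA box (TATAAA), the GC box (GGGCGG) and the CCAAT box (CCAAT).
Ren1: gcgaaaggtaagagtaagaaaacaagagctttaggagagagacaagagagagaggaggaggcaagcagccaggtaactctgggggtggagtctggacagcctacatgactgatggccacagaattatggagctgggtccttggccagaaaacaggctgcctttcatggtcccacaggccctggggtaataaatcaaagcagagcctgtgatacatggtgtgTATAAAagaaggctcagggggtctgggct
Ace: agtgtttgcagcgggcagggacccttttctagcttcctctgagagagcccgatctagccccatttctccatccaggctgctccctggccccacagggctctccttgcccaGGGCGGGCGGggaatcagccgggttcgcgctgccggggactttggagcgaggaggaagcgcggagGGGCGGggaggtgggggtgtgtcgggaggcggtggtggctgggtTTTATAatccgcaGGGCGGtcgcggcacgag
Enpep: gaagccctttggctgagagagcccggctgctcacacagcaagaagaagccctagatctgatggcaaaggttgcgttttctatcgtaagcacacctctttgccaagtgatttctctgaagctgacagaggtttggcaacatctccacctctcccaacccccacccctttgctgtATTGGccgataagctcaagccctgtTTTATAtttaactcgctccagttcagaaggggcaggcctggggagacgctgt
Dpp4: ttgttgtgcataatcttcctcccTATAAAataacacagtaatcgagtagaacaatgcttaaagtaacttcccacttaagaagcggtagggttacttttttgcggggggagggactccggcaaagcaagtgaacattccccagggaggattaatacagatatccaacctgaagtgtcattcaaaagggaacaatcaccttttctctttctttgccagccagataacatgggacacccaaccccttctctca

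In the Ren1 window the TATAAA starts 29 bases before the gene's start. The Ace window holds TTTATA, the same box on the other strand, at 31 bases and GGGCGG at 140, 136, 75 and 18 bases before the start, of which the matches at 140 and 136 overlap. In the Enpep window ATTGG lies at 77 and TTTATA at 52 bases, and in the Dpp4 window TATAAA lies at 227 bases, far from the start. None of these 4 windows holds the HIF core, which is a statement on these letters in these windows only. RefSeq gave 14 start windows for 8 of the 9 members, with none for Agtr1a. The HIF core was in 3 of the 14 (1 window each of Mme, Anpep and Ggt1), against 38.6% of 32851 windows of all genes. TATAAA was in 6 of the 14 against 12.4%, GGGCGG in 7 against 32.7% and CCAAT in 6 against 33.8%. Several windows belong to the same gene, so these counts are a description of the windows and no test was made.

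The values per kidney totalled 1473813 to 1808843 FPKM, of which Gpx3, a secreted glutathione peroxidase gene, took 55.5% to 61.7%, and the number of reads is unknown. Values were compared with limma on log2(FPKM + 1), with p adjusted over all 12036 genes and 0.05 as the threshold. This called 28.5% of all tested genes as higher and 6.56% as lower in BPS-TA kidneys, and the median log2 fold change of all genes was 0.12. The split depended on the scaling of the kidneys, with 3425 genes higher and 790 lower as deposited, 1416 and 1724 under quantile normalization and 1515 and 2480 under median centring. Of the 9 members 3 were called higher (Ace, Dpp4 and Mme) and 1 lower (Enpep), and their median log2 fold change was 0.11. The groups did not overlap for 5 of the 9, 4 above WT (the 3 called higher and Ggt1) and 1 below, against 43.9% of all tested genes. By these counts and by their median the members were near the background of the whole table. Proximal tubule markers were present at a high level, but the defining marker Hnf4a was listed at 0 in every kidney. Of the 11 tested proximal tubule markers 6 were called lower, 1 (Slc5a2) higher and 4 (Slc5a12, Cubn, Slc4a4 and Fbp1) neither. Their sum was 6474 to 6769 FPKM in WT and 3909 to 5285 FPKM in BPS-TA kidneys. Slc34a1 and Miox weighed most in it, with means of 2016 and 2054.5 FPKM in WT and 1215 and 1099 FPKM in BPS-TA kidneys. In bulk cortex, fewer cells of a type and less RNA per cell cannot be told apart.

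**Figure D1:**
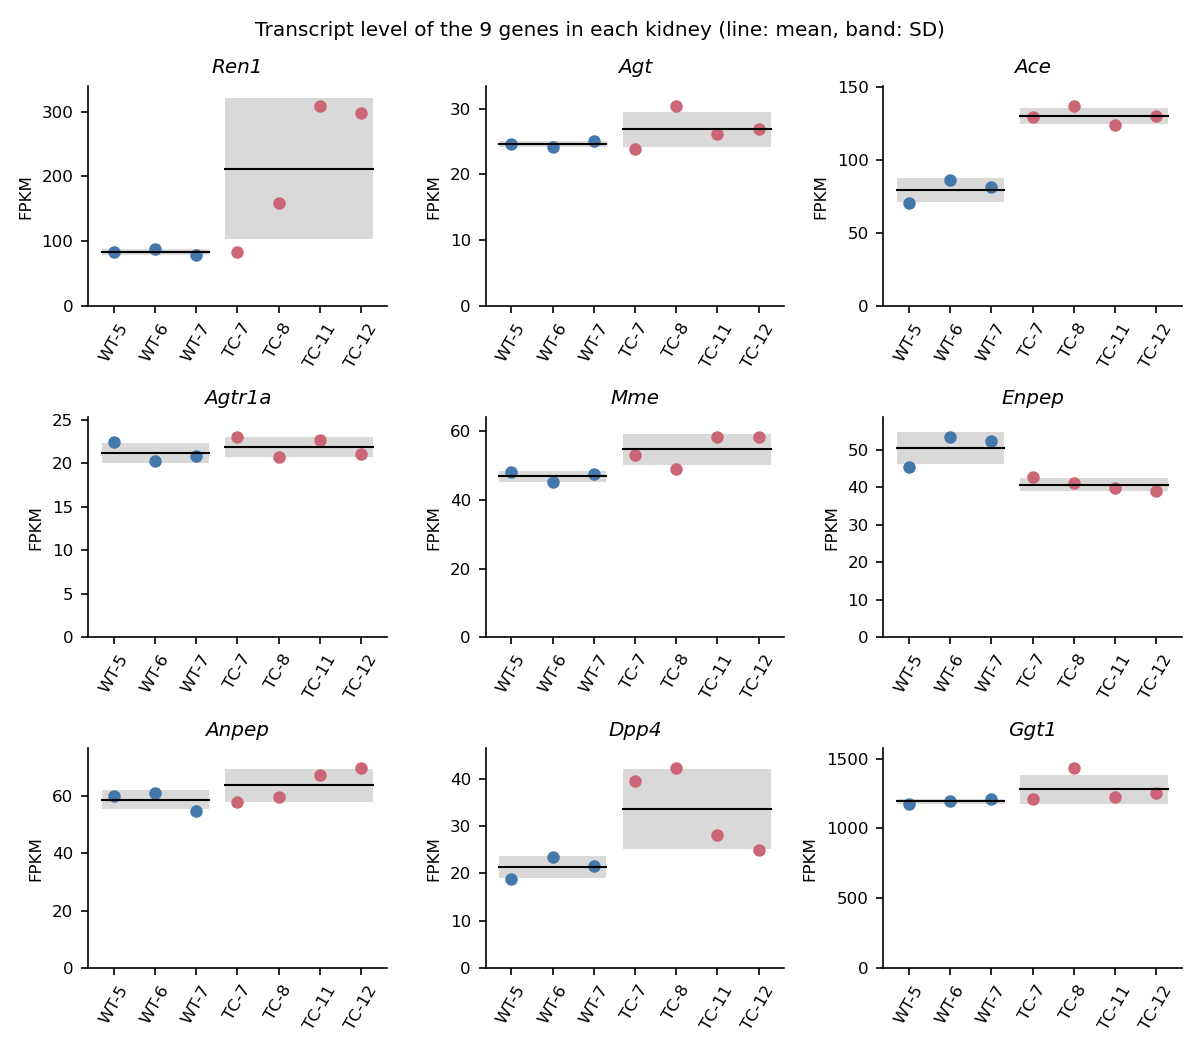
FPKM (y axis, from 0) of each member in each kidney (x axis), with WT kidneys in blue and BPS-TA kidneys in red. The black line is the group mean and the grey band 1 SD to either side. Ace separates the groups most cleanly, Ren1 runs from 84.2 to 309 FPKM among BPS-TA kidneys, and Enpep is the member whose BPS-TA kidneys all lie below WT.

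Agt (ENSMUSG00000031980, chromosome 8), the gene of angiotensinogen, the only substrate of renin, was at 24.6, 24.2 and 25.1 FPKM in WT and at 23.9, 30.4, 26.1 and 26.9 FPKM in BPS-TA kidneys. TC-8 was the highest kidney and TC-7 the lowest, so the groups overlapped. The means were 24.7 ± 0.462 (SD, n = 3) and 26.8 ± 2.68 (SD, n = 4), with a log2 fold change of 0.11 (standard error 0.078, limma adjusted p = 0.288). Median centring, which sets the medians of the kidneys equal, turned it to -0.062. Angiotensinogen is also a major product of the liver, and TC-8 carried the hepatocyte transcript Alb (albumin) at 244 FPKM, against 7.58 to 13.8 FPKM in the other BPS-TA kidneys and 8.18 to 30.0 FPKM in WT. The 6 hepatocyte markers summed to 97.6 to 108 FPKM in WT and 206 to 534 FPKM in BPS-TA kidneys, TC-8 being highest, and 1 of the 4 tested (Ttr) was called higher and 1 (Serpina1a) lower. In TC-7, TC-11 and TC-12 most of the sum was Ttr (186, 341 and 319 FPKM, against 58.9 to 88.0 FPKM in WT). None of the other hepatocyte markers exceeded the WT range in those kidneys. Without TC-8 the log2 fold change of Agt was 0.054.

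Ren1 (ENSMUSG00000070645, chromosome 1), the renin gene of juxtaglomerular cells, was at 83.0, 88.4 and 78.6 FPKM in the WT kidneys. In the BPS-TA kidneys it was at 84.2, 159, 309 and 297 FPKM, which is 1.01, 1.90, 3.70 and 3.57 times the WT mean. TC-7 lay inside the WT range, TC-8 above it, and TC-11 and TC-12 formed the top of the range. The BPS-TA kidneys thus differed among themselves by up to 3.67 times, the widest spread of any member, against 1.12 times among WT kidneys. The means were 83.3 ± 4.92 (SD, n = 3) and 212 ± 109 FPKM (SD, n = 4), a log2 fold change of 1.16 with a standard error of 0.41, and limma gave an adjusted p of 0.0594. The call depended on TC-7: without that kidney the log2 fold change was 1.54 and the adjusted p 0.00466. Rescaling each kidney without Gpx3 also brought it past the threshold (1.20, adjusted p = 0.0481), and over all 14 alternatives the adjusted p ran from 0.00466 to 0.143. Some mouse strains other than C57BL/6 carry a second, closely similar renin gene, whose reads could be counted under Ren1, and this was not tested. The paper does not state the strain of the stem cells behind the BPS allele, which WT kidneys lack.

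Of 3 markers of renin cells 2 rose, Akr1b7 and Rgs5. Akr1b7, an aldo-keto reductase gene of renin cells in the mouse, was at 2.21, 1.64 and 1.23 FPKM in WT and 2.44, 3.09, 4.63 and 4.08 FPKM in BPS-TA kidneys, and it rose (log2 fold change 0.75, adjusted p = 0.0176). That call was lost without WT-6 (adjusted p = 0.0545), without WT-7 (0.0673) and after quantile normalization (0.0886). Rgs5, a signalling regulator of renin cells and pericytes, was at 13.1 to 14.0 FPKM in WT and 21.3 to 27.5 FPKM in BPS-TA kidneys, a log2 fold change of 0.81 (adjusted p = 4.16e-04). Gja5, the connexin 40 gene that couples renin cells and endothelium, was at 2.00, 1.65 and 1.41 FPKM in WT and 1.49, 1.55, 2.50 and 2.78 FPKM in BPS-TA kidneys and did not pass the test (log2 fold change 0.18, adjusted p = 0.438), with a sign that turned under quantile normalization (-0.11). The 3 markers summed to 15.8 to 18.3 FPKM in WT and 26.0 to 34.3 FPKM in BPS-TA kidneys, and in every kidney most of this sum was Rgs5. In TC-7 Ren1 and Gja5 lay within the WT range, whereas Rgs5 and Akr1b7 lay above it. TC-11 and TC-12, highest for Ren1, were also highest for Akr1b7 and Gja5. That lead was not particular to renin cells. They also led in the sums of macrophage (126 and 149 FPKM), endothelial (164 and 176 FPKM) and thick ascending limb markers. They were lowest for proximal tubule markers (4015 and 3909 FPKM). The T cell, neutrophil, hepatocyte, adrenal cortex and adipocyte sums did not follow this order. Of 4 tested mural cell markers 1 (Pdgfrb) was called higher, their sum running from 32.0 to 48.1 FPKM in WT and 39.0 to 51.7 FPKM in BPS-TA kidneys. The part of cell numbers in the Ren1 values was not tested.

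Among 11 genes of renin control and the macula densa, 8 were tested and 4 were called higher, with a median log2 fold change of 0.21. Slc12a1, the sodium-potassium-chloride cotransporter through which macula densa cells sense salt, and which the whole thick ascending limb also uses, rose from 171 to 210 FPKM in WT to 331 to 412 FPKM in BPS-TA kidneys, which is 0.88 on the log2 scale (adjusted p = 6.02e-04). All 3 thick ascending limb markers, Slc12a1 included, were called higher, and their sum was 1564 to 1805 FPKM in WT and 2777 to 3305 FPKM in BPS-TA kidneys. Pde3b, a phosphodiesterase gene that breaks down cyclic AMP, the messenger that drives renin release, rose by a log2 fold change of 0.49 (adjusted p = 0.00378), a call lost under quantile normalization. Npr1, the receptor gene for atrial natriuretic peptide, and Vdr, the vitamin D receptor gene, passed at 0.42 (adjusted p = 0.0412) and 0.23 (adjusted p = 0.0343), and both calls were lost when several of the kidneys were left out in turn and under quantile normalization and median centring. Ptgs2, the inducible cyclooxygenase gene of the macula densa, was too low to be tested, at 0.175, 0.211 and 0.112 FPKM in WT and 0.106, 0.156, 1.03 and 0.953 FPKM in BPS-TA kidneys. Its higher values were in TC-11 and TC-12, the kidneys highest for Ren1. Nos1, another gene of this list that was too low to be tested, did not share that order. It was at 0.212, 0.355, 0.233 and 0.231 FPKM in BPS-TA kidneys, highest in TC-8.

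**Figure D2:**
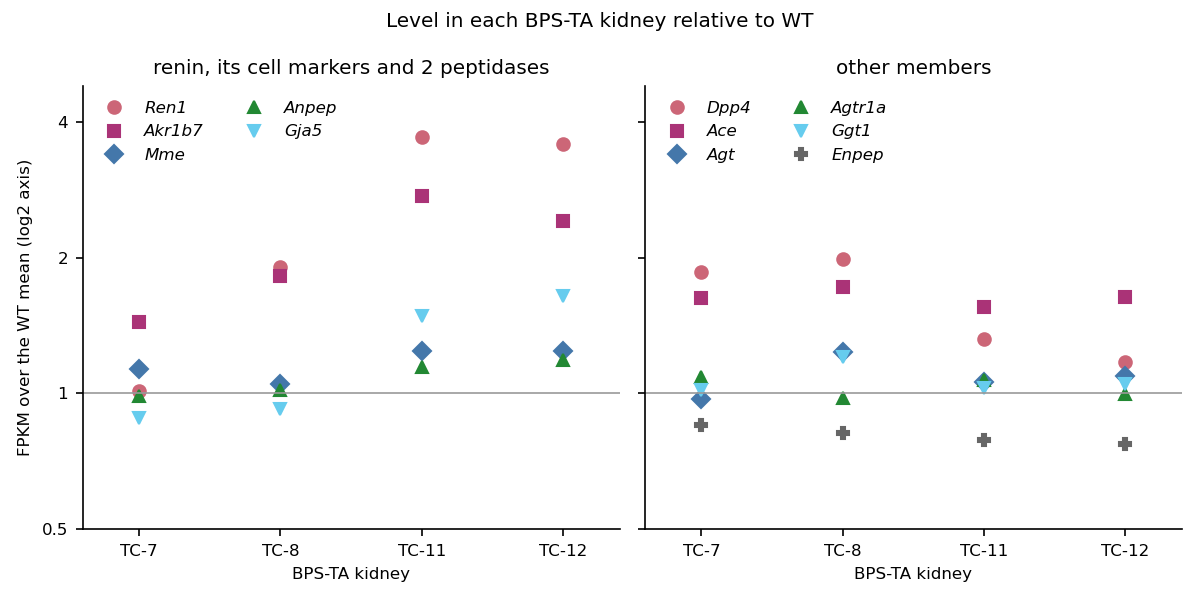
FPKM in each of the 4 BPS-TA kidneys (x axis) divided by the WT mean (y axis, log2 scale, grey line at 1). The left panel holds Ren1, Akr1b7, Gja5 and the peptidase genes Mme and Anpep, which were grouped after their values were seen because they were highest in TC-11 and TC-12, and the right panel holds the other members. Ren1 runs from 1.01 in TC-7 to 3.70 in TC-11, while Dpp4 runs the other way, from 1.99 in TC-8 to 1.17 in TC-12.

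Ace (ENSMUSG00000020681, chromosome 11), the converting enzyme gene, expressed in the brush border and in endothelium, was at 70.4, 86.7 and 81.5 FPKM in WT and at 130, 137, 124 and 130 FPKM in BPS-TA kidneys. The groups were clearly apart, and the 4 BPS-TA kidneys differed among themselves by no more than 1.11 times. The means were 79.5 ± 8.34 (SD, n = 3) and 130 ± 5.45 FPKM (SD, n = 4), a log2 fold change of 0.71 with a standard error of 0.075 (limma adjusted p = 4.53e-04). The call held in all 14 alternatives, with log2 fold changes of 0.53 to 0.77 and a highest adjusted p of 0.00299. The exact two-sided permutation test over the 35 splits of the 7 kidneys gave p = 0.0286, the smallest it can give. An antisense gene, Gm11651, overlaps Ace, and since no source used here gives the strand of counting, reads of the pair cannot be told apart. Col1a1, the site of the BPS cassette, is on chromosome 11 as well. A part of the sequence around that insert in the Ace values was not tested.

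Endothelial markers moved in the same direction. All 6 (Pecam1, Cdh5, Kdr, Emcn, Tie1 and Flt1) were called higher with log2 fold changes of 0.42 to 0.68, and their sum was 97.0 to 108 FPKM in WT and 150 to 176 FPKM in BPS-TA kidneys. Of 4 markers of the straight (S3) segment of the proximal tubule, 3 (Slc22a19, Cyp7b1 and Atp11a) were called higher and 1 (Slc7a13) lower, with sums of 1102 to 1301 FPKM in WT and 1095 to 1187 FPKM in BPS-TA kidneys. The part of either cell type in the rise of Ace was not tested.

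Agtr1a (ENSMUSG00000049115, chromosome 13), the gene of the AT1a receptor for angiotensin II, was at 22.5, 20.3 and 20.9 FPKM in WT and at 23.0, 20.7, 22.7 and 21.1 FPKM in BPS-TA kidneys. The groups overlapped almost fully, and the highest and the lowest of the 7 kidneys differed by less than 3 FPKM. The means were 21.2 ± 1.13 (SD, n = 3) and 21.9 ± 1.15 FPKM (SD, n = 4), with a log2 fold change of 0.044 (limma adjusted p = 0.615) that turned to -0.073 under quantile normalization and to -0.13 under median centring. A further transcript, Gm48161, lies within Agtr1a on the same strand.

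Enpep (ENSMUSG00000028024, chromosome 3) encodes aminopeptidase A, the brush border and podocyte enzyme that turns angiotensin II into angiotensin III. It was at 45.5, 53.5 and 52.4 FPKM in WT and at 42.8, 41.2, 39.8 and 39.0 FPKM in BPS-TA kidneys. All 4 BPS-TA kidneys lay below the lowest WT kidney, WT-5. Enpep fell from 50.4 ± 4.30 (SD, n = 3) to 40.7 ± 1.67 FPKM (SD, n = 4), a log2 fold change of -0.30 with a standard error of 0.068 (limma adjusted p = 0.0114). The call held in all 14 alternatives, at -0.47 to -0.26 and with a highest adjusted p of 0.0492, and the exact two-sided permutation p was 0.0286. It was the single member called lower, in a table where 6.56% of all tested genes were. A processed pseudogene, Gm42628, lies on the other strand within Enpep.

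Mme (ENSMUSG00000027820, chromosome 3) encodes neprilysin, a brush border and podocyte endopeptidase that cuts angiotensins and natriuretic peptides. It was at 48.1, 45.1 and 47.5 FPKM in WT and at 53.2, 49.1, 58.3 and 58.3 FPKM in BPS-TA kidneys. The groups did not overlap, though TC-8 was within 1 FPKM of WT-5. The means were 46.9 ± 1.58 (SD, n = 3) and 54.7 ± 4.47 FPKM (SD, n = 4), a log2 fold change of 0.21 with a standard error of 0.070 and a limma adjusted p of 0.0452. This call was lost in 11 of the 14 alternatives, among them every leave-one-out fit except that without TC-8, and under median centring the log2 fold change was 0.040 (adjusted p = 0.714). The exact permutation p was 0.0571. Podocytes are a further source of both Mme and Enpep. Of 6 podocyte markers 2, Podxl among them, were called higher. Their sum was 91.5 to 101 FPKM in WT and 112 to 141 FPKM in BPS-TA kidneys. TC-11 and TC-12 were highest for this sum and for Mme, but lowest for Enpep (39.8 and 39.0 FPKM). They also led in the macrophage, endothelial and thick ascending limb sums. The part of podocytes in the Mme and Enpep values was not tested.

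Anpep (ENSMUSG00000039062, chromosome 7), the gene of aminopeptidase N, which turns angiotensin III into angiotensin IV, was at 60.1, 61.1 and 54.9 FPKM in WT and at 58.0, 59.7, 67.3 and 69.7 FPKM in BPS-TA kidneys. TC-7 and TC-8 lay within the WT range and TC-11 and TC-12 above it. The means were 58.7 ± 3.36 (SD, n = 3) and 63.7 ± 5.71 FPKM (SD, n = 4), and the log2 fold change of 0.11 (limma adjusted p = 0.288) turned to -0.062 under median centring.

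Dpp4 (ENSMUSG00000035000, chromosome 2), whose product removes dipeptides from incretins and other peptides and is also found on T cells and endothelium, was at 18.9, 23.4 and 21.5 FPKM in WT. It was at 39.4, 42.2, 28.1 and 25.0 FPKM in the BPS-TA kidneys. All 4 lay above WT, and TC-7 and TC-8, at 1.85 and 1.99 times the WT mean, stood well above TC-11 and TC-12. Ren1 had its lower values in TC-7 and TC-8. Proximal tubule markers, like Dpp4, summed higher in TC-7 and TC-8 (4789 and 5285 FPKM) than in TC-11 and TC-12 (4015 and 3909 FPKM). The sums of S3 and of endothelial markers ran the other way. The part of these cell types in the Dpp4 values was not tested. Dpp4 rose from 21.3 ± 2.30 (SD, n = 3) to 33.7 ± 8.44 FPKM (SD, n = 4), a log2 fold change of 0.61 with a standard error of 0.18 (limma adjusted p = 0.0322, exact permutation p = 0.0571). The call was lost in 8 of the 14 alternatives (without each of WT-5, WT-6, WT-7, TC-7 and TC-8, under quantile normalization and median centring, and with no filter), where the adjusted p reached 0.103 and the log2 fold change stayed above 0. None of 5 T cell markers was high enough to be tested, and their sum was 1.61 to 2.74 FPKM in WT and 2.50 to 4.85 FPKM in BPS-TA kidneys. An antisense gene, Gm13561, overlaps Dpp4, and reads of the pair cannot be told apart.

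Ggt1 (ENSMUSG00000006345, chromosome 10) encodes the brush border γ-glutamyltransferase that breaks down extracellular glutathione, and a truncated ggt promoter drives tTA and the HIF1A mutant in these mice. It was the member with the highest level, at 1174, 1197 and 1208 FPKM in WT and at 1212, 1432, 1223 and 1252 FPKM in BPS-TA kidneys. The groups did not overlap, but TC-7 lay less than 5 FPKM above WT-7 and TC-8 alone stood well above the rest. The log2 fold change was 0.098 with a standard error of 0.065 (limma adjusted p = 0.272). It turned to -0.077 under median centring, and it passed the threshold under quantile normalization (0.16) and after rescaling without Gpx3 (0.14). Of 7 genes of glutathione synthesis and breakdown, Gclc, the catalytic subunit of its first enzyme, rose from 66.1 to 83.9 FPKM in WT to 133 to 147 FPKM in BPS-TA kidneys, which is 0.87 on the log2 scale (adjusted p = 3.13e-04). Chac1, an intracellular glutathione-degrading enzyme, rose from 0.282 to 0.490 FPKM to 2.20 to 2.87 FPKM (1.31, adjusted p = 7.32e-05). All WT values of Chac1 were under 1 FPKM. It met the filter only through the BPS-TA kidneys, which limits what its p-value can show. Gclm, the regulatory partner of Gclc, fell (-0.24, adjusted p = 0.0112), as did Chac2 (-0.33, adjusted p = 0.0255), whose call was lost without WT-6 (adjusted p = 0.0849), WT-7 (0.0731) or TC-12 (0.0632) and after rescaling without Gpx3 (0.0640). The median of the 7 was -0.044.

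**Figure D3:**
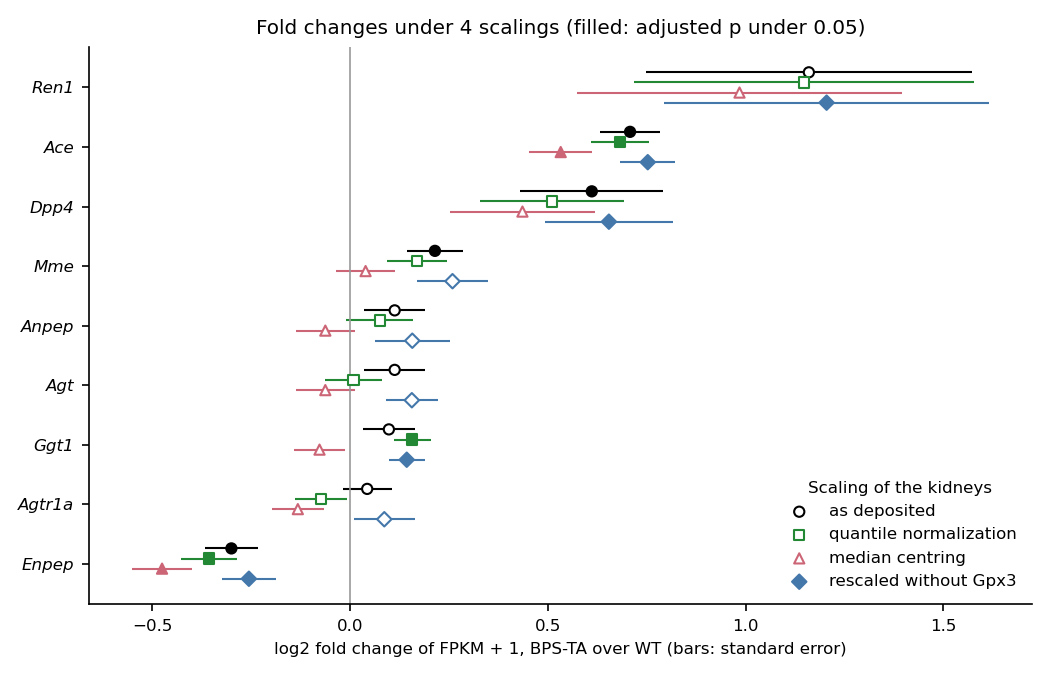
Log2 fold change of FPKM + 1, BPS-TA over WT (x axis, bars are standard errors), of the 9 members (y axis) under 4 ways of scaling the kidneys, with filled symbols where the adjusted p is under 0.05. Ace stays between 0.53 and 0.75 and Enpep between -0.47 and -0.26, filled under all 4, whereas the symbols of Agt, Anpep, Agtr1a and Ggt1 fall on both sides of 0.

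Ordered by mean FPKM, which is scaled for transcript length, the WT kidneys read Ggt1 (1193), Ren1 (83.3), Ace (79.5), Anpep (58.7), Enpep (50.4), Mme (46.9), Agt (24.7), Dpp4 (21.3) and Agtr1a (21.2). In that order Ren1 and Ace, Enpep and Mme, and Dpp4 and Agtr1a overlapped in range and their places are not settled. In BPS-TA kidneys Mme (54.7 FPKM) stood above Enpep (40.7 FPKM) with no overlap, and Dpp4 (33.7 FPKM) stood above Agt (26.8 FPKM) with overlapping ranges. Ggt1 lay at percentile 99.6 of the WT levels of tested genes and Agtr1a at percentile 68.8.

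Of 18 other renin-angiotensin genes, 12 were tested, 2 were called higher and 0 lower by limma (3 and 1 at an unadjusted p under 0.05), with a median log2 fold change of 0.073. Mas1, the receptor gene for a shortened angiotensin, was at 1.65, 1.70 and 2.13 FPKM in WT and at 20.9, 23.2, 18.9 and 16.4 FPKM in BPS-TA kidneys. The groups were far apart, with a mean 10.9 times that of WT (log2 fold change 2.88, standard error 0.12, adjusted p = 2.86e-06), and the call held in all 14 alternatives (2.67 to 3.37). The noncoding gene Airn overlaps Mas1 on the other strand, and reads of the pair cannot be told apart. Atp6ap2, the (pro)renin receptor gene, was at 74.1 to 74.5 FPKM in WT and 64.1 to 74.9 FPKM in BPS-TA kidneys and did not pass the test (-0.062, adjusted p = 0.459), though it did under median centring (-0.24, adjusted p = 0.0303). Agtr1b, Agtr2, Mrgprd, Cma1, Ctsg and Cpa3, further receptors and mast cell or neutrophil proteases, were all under 0.3 FPKM in every kidney.

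Of 10 other brush border peptidase genes with values, 8 were tested, 4 rose and 1 fell, with a median log2 fold change of 0.30. Xpnpep2, an aminopeptidase P gene, rose from 3.61, 6.17 and 6.20 FPKM to 7.98, 11.2, 9.01 and 9.10 FPKM (0.73, adjusted p = 0.0138). Naalad2, a glutamate carboxypeptidase gene at 0.872 to 1.09 FPKM in WT and 1.33 to 2.29 FPKM in BPS-TA kidneys, passed at 0.48 (adjusted p = 0.0241). Its WT values lay near 1 FPKM, so it met the filter through its BPS-TA kidneys. Mep1a, the meprin α gene, was at 675 to 728 FPKM in WT and 749 to 788 FPKM in BPS-TA kidneys (0.14, adjusted p = 0.0494), and its sign turned under median centring (-0.038). Ggt6, a relative of Ggt1, fell from 5.30 to 6.37 FPKM to 4.08 to 5.01 FPKM (-0.28, adjusted p = 0.0443). Each of these 4 calls was lost in at least 1 alternative, Mep1a's in 10 of 14, Ggt6's in 8, Naalad2's in 6 and Xpnpep2's under quantile normalization alone.

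Of 10 brush border structure genes, all tested, 2 rose and 2 fell, with a median of 0.078. Vil1, the villin gene of the microvillus core, was at 61.1, 68.3 and 68.6 FPKM in WT and at 62.8, 70.8, 65.4 and 61.9 FPKM in BPS-TA kidneys, with a log2 fold change of -0.017 (adjusted p = 0.864) whose sign changed with the scaling and with the kidney left out. Espn, an actin-bundling gene, rose (0.54, adjusted p = 0.00107), as did Cdhr2, an intermicrovillar cadherin gene (0.43, adjusted p = 0.00161). The scaffold genes Slc9a3r1 and Pdzk1, whose products hold transporters in the membrane, fell (-0.32, adjusted p = 0.00365, and -0.20, adjusted p = 0.0155), the call of Pdzk1 being lost without WT-7 (adjusted p = 0.0609). Myo6 was listed at 0 in WT-7 and at 92.0 to 112 FPKM in the other 6 kidneys, so its mean is not given, and without it the median of the remaining 9 genes was 0.027, a value added after the data were seen. Of 4 tested genes for the uptake of peptides and amino acids, 1 changed, Tmem27, the gene of collectrin. It fell from 1632, 1634 and 1769 FPKM to 1455, 1271, 1283 and 1207 FPKM, with no overlap (-0.37, adjusted p = 0.00602), a call lost under quantile normalization (adjusted p = 0.0618).

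**Figure D4:**
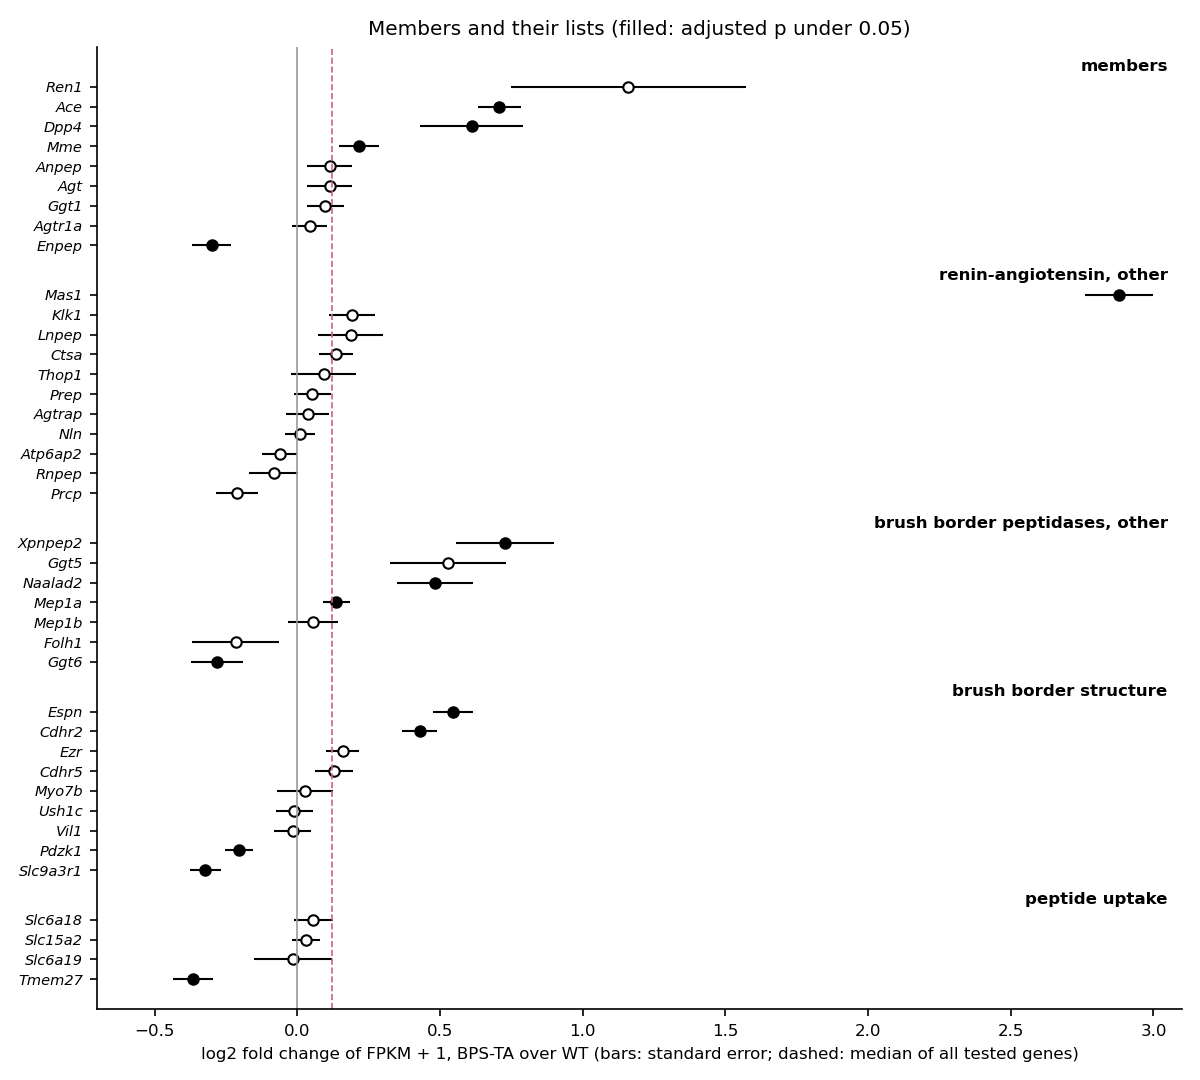
Log2 fold change of FPKM + 1, BPS-TA over WT (x axis, bars are standard errors), of the members and 4 related lists (y axis), with filled symbols where the adjusted p is under 0.05, a grey line at 0 and a dashed line at 0.12, the median of all tested genes. Mas1 stands apart at 2.88, and the lists lie on both sides of the dashed line. Myo6 is left out because it is listed at 0 in WT-7.

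In a ratio of a pair of genes within the same kidney a single scaling factor for that kidney cancels, apart from the pseudocount. Quantile normalization can change such ratios, which were not computed under it. For 8 ratios of FPKM + 1, the exact two-sided permutation test has a smallest p of 0.0286, and none passed after adjustment over the 8 (smallest adjusted p = 0.152). With so few kidneys, a ratio at that smallest p could pass only if several others reached it too. The failure to pass therefore says little about any single ratio. Ace to Vil1 was 1.15, 1.27 and 1.19 in WT and 2.05, 1.92, 1.88 and 2.08 in BPS-TA kidneys, a 1.65-fold higher ratio with no overlap (exact p = 0.0286). Enpep to Vil1 was 0.749, 0.785 and 0.767 in WT and 0.687, 0.588, 0.615 and 0.636 in BPS-TA kidneys, lower in all 4 (exact p = 0.0571). Dpp4 to Vil1 was higher in all 4 BPS-TA kidneys (0.412 to 0.634 against 0.320 to 0.353, exact p = 0.0571). The ratios of Mme, Anpep and Ggt1 to Vil1 overlapped between the groups, with log2 differences of 0.23, 0.13 and 0.12. Agt to Ren1, substrate over enzyme, was 0.305, 0.282 and 0.328 in WT and 0.293, 0.197, 0.0875 and 0.0936 in BPS-TA kidneys, with TC-7 inside the WT range (log2 difference -1.05, exact p = 0.114).

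**Figure D5:**
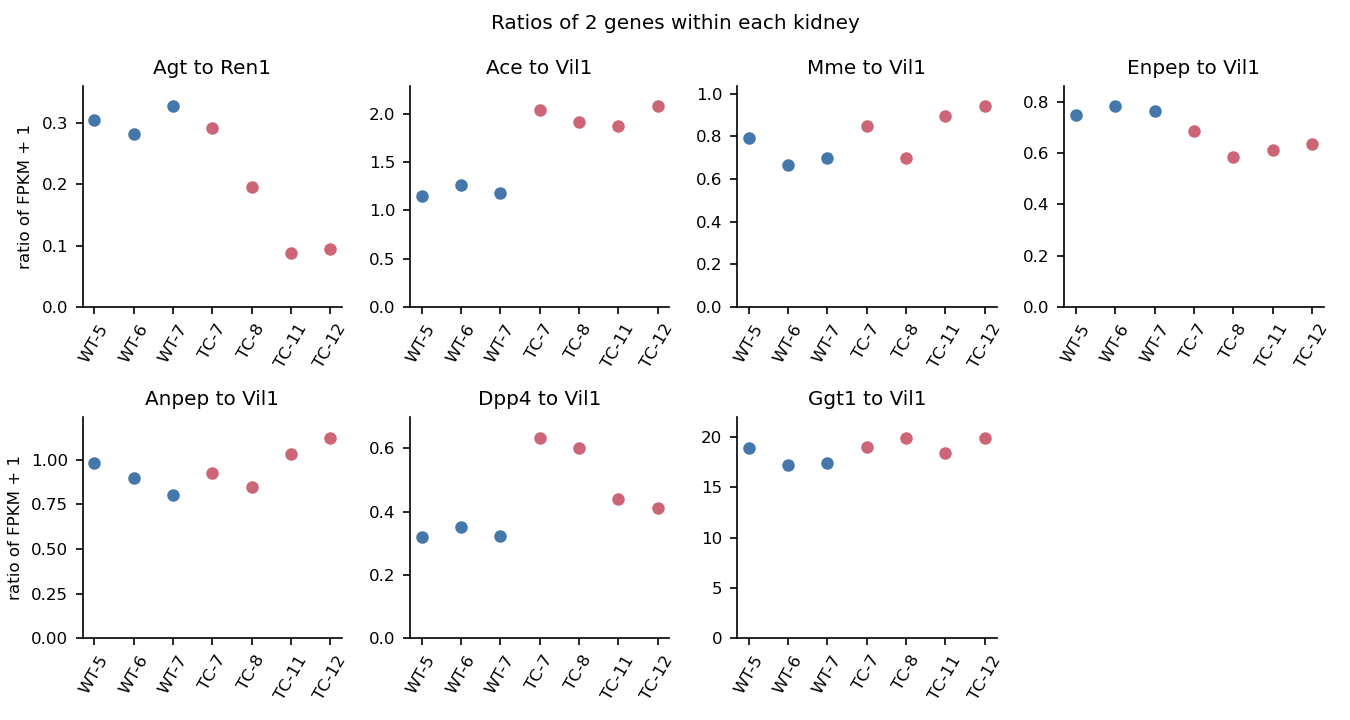
Ratio of the FPKM + 1 of a pair of genes within each kidney (y axes, from 0), with WT kidneys in blue and BPS-TA kidneys in red. Ace to Vil1 and Dpp4 to Vil1 are higher and Enpep to Vil1 is lower in all 4 BPS-TA kidneys, while Agt to Ren1 ranges from 0.293 in TC-7 to 0.0875 in TC-11.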

How the data were processed

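Cortex RNA was sequenced by the authors as total RNA with single reads of 51 bases. The paper counts 7 WT and 4 BPS-TA kidneys, whereas the labels and values used here cover 3 WT and 4 BPS-TA kidneys, and the reason is not known. The submitters' processing notes name mm9 and DESeq 1.32. The aligner, counter, annotation and strand setting, and how the authors computed the FPKM they deposited, were not given in the sources used here. Since the unit is unnamed, FPKM was taken from the values, whose totals differ between kidneys. The 7 columns were assigned to groups by name, and their numbers match no replicate number of the labels. The authors' other table holds their own comparison (mean, fold change, p-values) and was not used.

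After 83 entries of 37 repeated gene identifiers were dropped, genes reaching an FPKM of 1 in 3 or more kidneys were tested on log2(FPKM + 1) by limma 3.58.1 in R 4.3.3, with its trend of variance on level, and p-values were adjusted over all of them (Benjamini-Hochberg) at a threshold of 0.05. The study's own count test needs counts and was not possible. Fold changes include the pseudocount of 1, which lowers those of genes near 1 FPKM. Single values and ratios were compared by exact permutation over 35 splits. Alternatives were quantile normalization, median centring, rescaling without Gpx3, limma with no trend, no filter on low values, a filter of 1 FPKM in every kidney, a pseudocount of 0.1 and each kidney left out. The steps were tested on simulated data. Other steps ran in Python 3.11.15 (matplotlib 3.10.9, scipy 1.17.1, pandas 2.3.3, numpy 2.4.6). Promoter sequence, motif counts and the assembly GRCm38.p6 came from RefSeq by gene symbol, and gene overlaps from GENCODE.

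The members, gene lists and tests were chosen with earlier results of these data known. Named are all members, up to 6 called genes of each list with the largest changes, and Mas1, Atp6ap2, Vil1, Akr1b7 and Gja5. Myo6, Ptgs2, Nos1, the markers and the untested receptor genes were named after their values were seen. Some genes that this rule names are counted in their lists but not reported here. With the number of reads unknown, no counting interval is given.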

Additional observations from a re-analysis of the deposited data

Results flagged for a closer look

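Within the 4 BPS-TA kidneys, 44 series of values were compared by the gap between an extreme kidney and its nearest neighbour as a share of the range, with Dixon's 95% critical value for 4 samples as the limit. Chance alone passes this limit in about 1 of 20 groups. In 4 series a kidney stood apart, each time TC-8 and each time for a hepatocyte transcript. These 4 transcripts, chosen from the 6 hepatocyte markers, had been added to the named genes and ratios, so the chance rate does not apply to them. No other series passed the limit. Of the hepatocyte markers left out, Ttr was highest in TC-11 (341 FPKM) and Serpina1a in TC-8 (7.30 FPKM, inside the WT range). Alb, the albumin gene, was at 244 FPKM in TC-8. Apoa1, an apolipoprotein gene, was at 36.6 FPKM, against 1.38 to 2.86 FPKM in the other BPS-TA kidneys and 0.846 to 5.48 FPKM in WT. Fgb, the fibrinogen β chain gene, was at 4.87 FPKM, against 0.282 to 0.401 FPKM and 0.127 to 0.986 FPKM. Tat, the tyrosine aminotransferase gene, was at 3.63 FPKM, against 0 to 0.142 FPKM and 0.0375 to 0.375 FPKM. TC-8 was also the highest BPS-TA kidney for Agt, Ace, Dpp4 and Ggt1, and the part of liver RNA in these values was not tested.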

How the results depend on the processing

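Over all genes, 3425 were called higher and 790 lower, which became 1416 and 1724 under quantile normalization, 1515 and 2480 under median centring, 3921 and 607 after rescaling without Gpx3, and 2276 to 3301 higher and 484 to 905 lower with a kidney left out. Members called higher (3) numbered 1 under median centring and 1 with no filter, and 1 to 2 with a kidney left out, while 1 to 1 was called lower. Other renin-angiotensin genes called higher (2) numbered 4 under quantile normalization, 1 under median centring, 4 without Gpx3 and 2 to 3 with a kidney left out, and those called lower (0) numbered 1, 4 and 0 to 1 (quantile normalization, median centring, a kidney left out). Other brush border peptidases called higher (4) numbered 2 under quantile normalization, 1 under median centring, 2 with an FPKM of 1 in every kidney and 2 to 4 with a kidney left out, and those called lower (1) numbered 0 without Gpx3, 0 with no filter and 0 to 1 with a kidney left out. Structure genes called higher (2) numbered 4 without Gpx3 and 2 to 2 with a kidney left out, and those called lower (2) numbered 1 to 2. Median centring turned Agt (-0.062), Anpep (-0.062), Ggt1 (-0.077), Agtr1a (-0.13) and Mep1a (-0.038), and quantile normalization turned Agtr1a (-0.073) and Gja5 (-0.11). Vil1 was at 0.028 without Gpx3 and at -0.070 to 0.011 with a kidney left out. No ratio within a kidney changed sign in its 9 alternatives. The causes were not tested. No paired analysis was possible because the numbers in the column names match no replicate number in the labels. The unknown depth limits what can be said of genes near 0, such as Agtr2.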

Other observations

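Some cell type lists not described above also moved. All 7 macrophage markers were called higher, at log2 fold changes of 0.62 to 1.77, and their sum was 50.0 to 56.3 FPKM in WT and 93.6 to 149 FPKM in BPS-TA kidneys. Of the B and plasma cell markers, 3 of 3 tested were called higher. Among them Cd79a and Mzb1 were under 1 FPKM in every WT kidney and met the filter only through BPS-TA kidneys. Jchain, the joining chain gene of secreted immunoglobulins, was at 20.1, 29.2 and 8.75 FPKM in WT and 197, 154, 238 and 274 FPKM in BPS-TA kidneys, which is 3.53 on the log2 scale (adjusted p = 3.92e-04). Of 5 mesangial and stromal markers 4 were called higher, with Pdgfra at 2.16 to 2.84 FPKM in WT and 3.80 to 5.69 FPKM in BPS-TA kidneys. Proximal tubule markers differed among themselves. Slc22a6, an organic anion transporter gene, fell from 275 to 303 FPKM to 71.0 to 116 FPKM (-1.72, adjusted p = 3.91e-04), while Slc5a2, the glucose cotransporter gene SGLT2, rose from 308 to 323 FPKM to 342 to 392 FPKM (0.22, adjusted p = 0.0181). Adrenal cortex markers, listed because the adrenal gland abuts the kidney, were all under the filter, with sums of 0.723 to 0.906 FPKM in WT and 0.961 to 1.02 FPKM in BPS-TA kidneys. Of the mast cell markers only Kit was high enough to be tested, and it was called higher (0.43).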
